A study of Penicillium oxalicum with 10 samples.

Results

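The comparison sets a strain of the filamentous fungus Penicillium oxalicum labelled as a deletion of swi6 beside the wild type strain M12. All 9859 genes of the deposited table were considered, and the 9134 with a mean level of at least 1 RPKM (reads per kilobase of gene, scaled to the library's read total) over the 10 libraries of the study were kept. The lowest kept gene had a mean of 1.004 RPKM, the highest of the 725 removed genes had 0.999 RPKM, and no removed gene exceeded 7.13 RPKM in the swi6 deletion. The study profiled mycelia of 10 strains, M12 and 9 others each labelled with 1 deleted gene, with 1 library a strain. Besides swi6 these are the fluffy genes flbA to flbE, then stuA, abaA and wetA, which are known from Aspergillus as regulators of spore formation. Every strain was pre-cultured from conidia for 20 h at 30 °C in a modified Czapek medium containing 2% glucose, moved to fresh medium for 48 h and harvested by filtration. The labels name no allele, clone or parental modification beyond these genotypes. The kept genes held 5149435 reads in the wild type library, below also called M12, and 5607961 in the swi6 deletion library, below the swi6 library. The other 8 libraries held 3102703 to 7596448. With 1 library a side there is no replicate error and no test, so genes at least 2-fold apart on the log2(RPKM + 1) scale were counted. Ratios of RPKM carry an exact 95% interval from the read counts, which covers counting error only, since reads without molecular identifiers are not independent molecules. The labels of the libraries named flbD and abaA deletion are in doubt, and whether they are right was not tested. FlbD itself (PDE_03008) was read at 327 RPKM in the first, and the one gene named as a transcriptional enhancer factor (PDE_02932), the family to which AbaA belongs, had 59.1 RPKM in the second.

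The name Swi6 is borne by 2 unrelated fungal proteins. In fission yeast it is a chromodomain protein of the HP1 family, which binds methylated histone H3 and keeps heterochromatin silent. In budding yeast it is an ankyrin-repeat protein that joins Swi4 or Mbp1 to switch on genes at the start of the cell cycle. Which one the deleted gene encodes is not stated. Filamentous fungi form conidia, asexual spores, on specialised stalks under the transcription factor BrlA, and many of their pigment and toxin genes lie in clusters of neighbours that are switched on together.

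A text search of the annotation matched 3 genes of the chromodomain family and 0 genes named as members of the budding yeast Swi6, Swi4 and Mbp1 family. Only 3643 of the 9859 genes carry an informative name, so this search can miss members of either family. Chromobox protein 1 (PDE_08896), the HP1-family gene, had 164 reads and 43.9 RPKM in M12, with 99.04% of its length covered. It had 1 read and 0.246 RPKM in the swi6 library, with 6.89% covered. In the other 8 deletion libraries it ranged from 29.3 to 66.0 RPKM with a median of 33.3, so the swi6 library lay below all others. The ratio was 179-fold lower than wild type, with a counting interval of 31.6 to 7097 that 1 read leaves wide. The other chromodomain genes were not at 0. The helicase CHD1 (chromodomain-helicase-DNA-binding protein 1, PDE_07150) had 28.3 RPKM in M12 and 23.1 RPKM in the swi6 library, and chromo domain-containing protein 1 (PDE_04542) had 8.10 and 9.35 RPKM. The genes numbered next to PDE_08896 were read in both libraries. PDE_08895, named as an interaction partner of a telomeric repeat-binding factor, had 14.7 and 7.01 RPKM, and PDE_08897, subunit epsilon of the TCP-1 chaperonin, had 106 and 61.7 RPKM. By ratio PDE_08895 was 2.097-fold lower (1.496 to 2.97) and PDE_08897 1.73-fold lower (1.55 to 1.92). In the other 8 deletion libraries PDE_08895 held 3.52 to 13.9 RPKM, a range that includes the swi6 level. PDE_08897 held 74.1 to 126 RPKM there, so the swi6 library was the lowest for that gene. On the log2(RPKM + 1) scale neither gene passed 2-fold, at -0.97 and -0.78. Both were named here after their values were seen.

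Among the 9134 kept genes, 1003 were at least 2-fold higher in the swi6 library (11.0%) and 1090 at least 2-fold lower (11.9%), with a median difference over all kept genes of -0.14 on the log2 scale. Scaling by median-of-ratios size factors in place of read totals moved that median to 0.04 and the split to 1229 higher and 857 lower, so higher genes made up 58.9% of the calls in place of 47.9%. List medians near 0 can change sign with it, as for cell cycle control, at -0.11 and 0.07. Larger differences leaned downward: 147 genes were at least 8-fold higher and 211 at least 8-fold lower, and 27 and 71 passed 32-fold. In bulk RNA, fewer cells of a type and less RNA per cell cannot be told apart, and this holds for every level below. A gene was said to stand apart when the swi6 library lay at least 2-fold above, or below, each of the other 9 libraries. By that count 172 genes stood above all others (1.88%) and 104 below (1.14%). Without the libraries labelled flbD and abaA deletion the counts were 179 and 105, and without the flbC deletion library 302 genes stood above. Set directly against each other library, the swi6 library had the fewest genes past 2-fold against the flbC deletion (1870 in either direction, 20.5%) and the most against the flbA deletion (4130, 45.2%). Of those 4130 genes 3190 were higher in the swi6 library and 940 lower. In the flbA deletion library 1 gene took 27.9% of reads, beside 7.54% in the swi6 library. RPKM is scaled to the read total, and the bearing of that share on these counts was not tested.

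**Figure D1:**
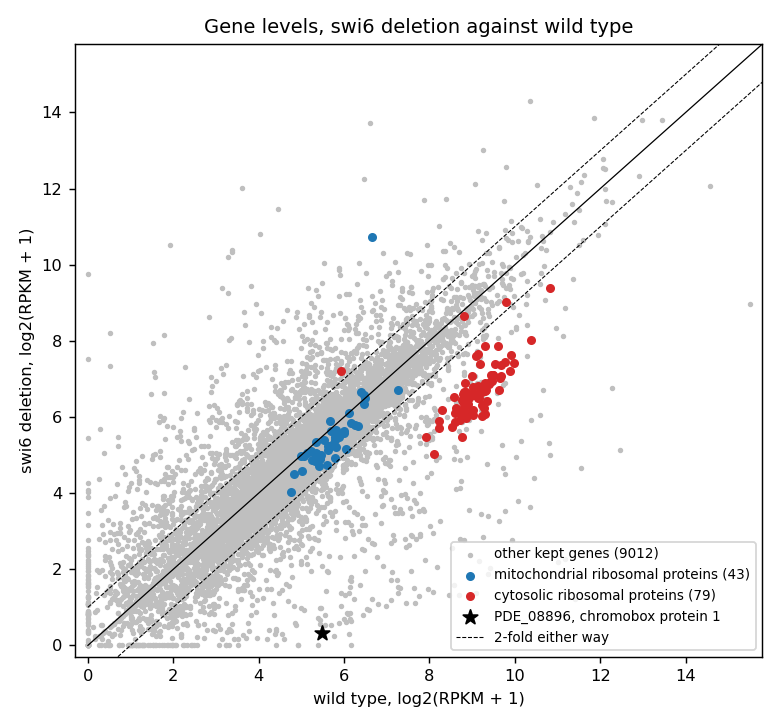
Level of each of the 9134 kept genes in wild type (horizontal axis) and in the swi6 library (vertical axis), both as log2(RPKM + 1), with dashed lines at 2-fold. The cytosolic ribosomal proteins form a group below the lower dashed line apart from 3 of 79, while the mitochondrial ones lie between the lines apart from 1 of 43, and PDE_08896 lies near the floor.

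Genes of the cytosolic ribosome were lower almost throughout. Of 122 kept genes named as ribosomal proteins, 76 were at least 2-fold lower and 2 higher, beside 11.9% and 11.0% over all kept genes. All 76 belong to the 79 proteins of the cytosolic ribosome, the particle that translates nuclear messages, whose median difference was -2.46 beside -0.14 over all kept genes. The division into cytosolic and mitochondrial lists was made after the values were seen. The median level of the 79 genes was 521 RPKM in M12, 95.5 RPKM in the swi6 library and between 358 and 639 RPKM in the other 8. Together the 80 matched genes took 2.22% of wild type reads (Wilson 95% interval 2.21 to 2.24) and 0.452% of reads in the swi6 library (0.447 to 0.458), while the other 8 libraries ranged from 1.55% to 2.71%. In 77 of the 79 genes the swi6 library held the lowest of the 10 levels, and 72 stood at least 2-fold below every other library. Those 72 are 69.2% of the 104 genes that stood apart below and 91.1% of the list.

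Genes of both subunits were lower. Of 32 small-subunit genes 31 were at least 2-fold lower, with a median of -2.53, and of 47 large-subunit genes 45 were, with a median of -2.39. Of the list, S3e (PDE_02754) had the largest difference. This protein at the mRNA entry of the small subunit had 431 RPKM in M12 and 43.3 RPKM in the swi6 library, 9.96-fold lower (8.58 to 11.6). Elsewhere it ranged from 240 to 598 RPKM with a median of 317. S20e (PDE_01695) had 629 RPKM in M12, 66.0 in the swi6 library and 442 to 757 elsewhere, which is 9.52-fold lower (7.94 to 11.5). The stalk protein LP1 (PDE_02590) had 602, 64.3 and 325 to 819 RPKM in the same order, 9.36-fold lower (7.74 to 11.4). In each of these genes the swi6 library was clear of the other 9. SAe (PDE_05108) was 8.58-fold lower (7.28 to 10.2) and S10e (PDE_08216) 8.31-fold lower (7.30 to 9.49).

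Only 3 of the 79 genes did not pass 2-fold downward. L24e (PDE_05375) was higher, at 60.4 RPKM in M12 and 147 RPKM in the swi6 library, 2.44-fold (2.05 to 2.91). Elsewhere it held 41.7 to 312 RPKM with a median of 231, and in the flbA deletion alone it lay below wild type. S30e (PDE_04423) had 887 and 522 RPKM, and L30e (PDE_04328) had 448 and 405 RPKM. Both lay outside the rule for named genes and were named after their values were seen. Reads were counted where they map uniquely, and genes with near-identical copies are uncertain for that reason.

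**Figure D2:**
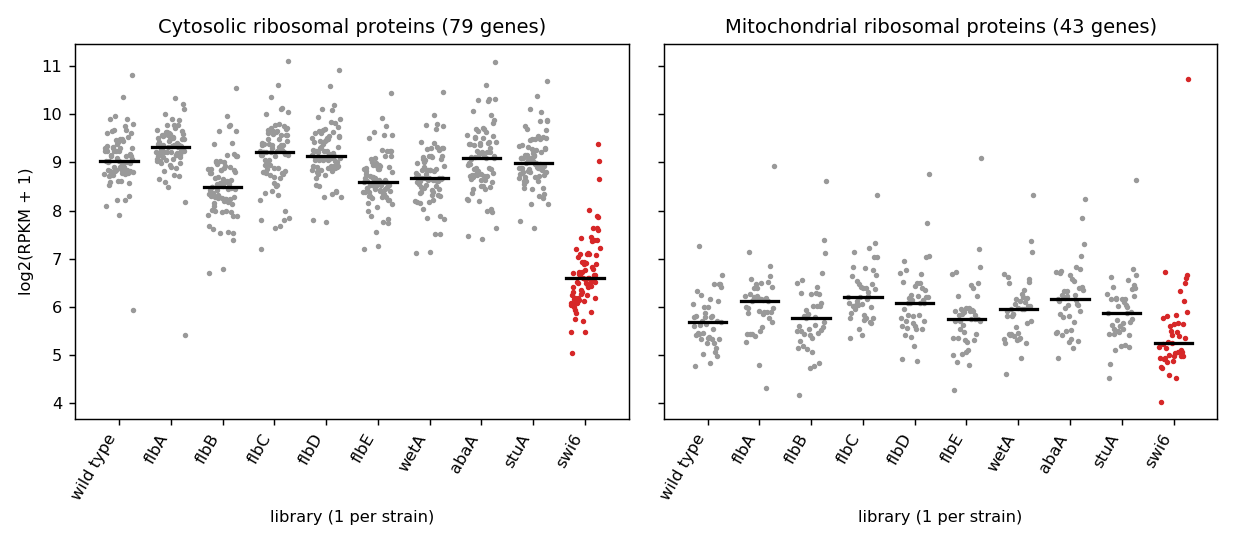
Level of each cytosolic (left, 79 genes) and mitochondrial (right, 43 genes) ribosomal protein gene as log2(RPKM + 1) in the 10 libraries, 1 per strain, with a bar at the median. The cytosolic median was 95.5 RPKM in the swi6 library and 358 RPKM or more in each other library, and the mitochondrial medians ran from 37.0 to 72.1 RPKM.

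Against wild type, the rest of the translation machinery did not share that size of difference. Of 43 kept mitochondrial ribosomal proteins 0 were at least 2-fold lower and 1 was higher, with a median of -0.36. Their median level was 50.2 RPKM in M12 and 37.0 RPKM in the swi6 library, and 52.8 to 72.1 RPKM in the other 8. The 1 higher gene, YMR-31 (PDE_02554), had 100 RPKM in M12, 1710 in the swi6 library and 302 to 544 elsewhere, 17.0-fold (14.7 to 19.9). Its neighbour by number, a subunit 18 of the Mediator complex that links transcription factors to RNA polymerase II (PDE_02553), had 14.8 and 197 RPKM, 13.3-fold (10.4 to 17.4), and 24.1 to 49.3 RPKM elsewhere. Both stood above all other libraries. Strand was not given, so reads of overlapping neighbours cannot be told apart.

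The next lists, down to RNA polymerases I and III, were assembled after values were seen. Over all kept genes 11.0% were higher and 11.9% lower. Of 53 translation factors 1 was higher and 2 lower, with a median of -0.37. Elongation factor 1-alpha (PDE_09012), which delivers aminoacyl-tRNA to the ribosome, had 967 RPKM in M12 and 302 RPKM in the swi6 library, 3.21-fold lower (3.06 to 3.37). The other 8 libraries held 48.4 to 451 RPKM, with a median of 155 below the swi6 level. Elongation factor 3 (PDE_03486), a fungal ATPase of the ribosome, had 25.9 and 61.3 RPKM, 2.37-fold higher (2.12 to 2.64). The other deletions held 65.5 to 126 RPKM, all above the swi6 library, so wild type was the lowest of the 10. Of 37 aminoacyl-tRNA synthetases 1 was higher and 6 were lower, with a median of -0.53. Of 22 subunits and factors of RNA polymerases I and III 1 was higher and 1 lower. The lower one was RRN7 (PDE_02848), an initiation factor for ribosomal RNA genes, with 160 RPKM in M12, 46.4 in the swi6 library and 132 to 213 elsewhere, 3.45-fold lower (3.12 to 3.81). Of 76 ribosome biogenesis genes 1 was higher and 2 lower, with a median of -0.08, and of 41 proteasome genes 0 were higher and 1 lower. The median level of the ribosome biogenesis genes was 18.2 RPKM in M12, 19.3 in the swi6 library and 15.2 in the flbA deletion. In each remaining deletion it was higher, at 36.9 to 43.7 RPKM. For RNA polymerases I and III these medians were 20.6, 17.7 and 19.4 RPKM, and 22.3 to 34.0 RPKM in the remaining deletions.

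The lists nearest to either meaning of Swi6 held few members past 2-fold, beside 11.0% higher and 11.9% lower over all kept genes. They hold genes by name, and targets of either protein were not analysed. Of 13 kept genes of heterochromatin, histone methylation and RNA silencing 0 were higher and 1 was lower, and that one is PDE_08896 itself. The histone H3 lysine 9 methyltransferase of the SUV39 family (PDE_00634), which makes the mark that HP1 proteins bind, had 6.39 RPKM in M12 and 6.51 RPKM in the swi6 library and was named after its values were seen. Its ratio of 1.02 had a counting interval of 0.696 to 1.49. Of 23 histone acetylation and remodelling genes 0 passed 2-fold in either direction, and of 8 histone genes 0 did, with medians of -0.26 and 0.22. Of 58 genes of cell cycle control 0 were higher and 2 lower, with a median of -0.11. The larger of the 2 by level, mitotic-spindle organizing protein 1 (PDE_06776), had 43.7 and 14.1 RPKM, 3.10-fold lower (1.81 to 5.53). Likewise, of 74 replication and repair genes 1 was higher and 2 lower, with the same median of -0.11. The search for transposable elements matched 1 gene, which is named as a telomerase reverse transcriptase and did not pass 2-fold, so transposon levels were not analysed here.

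The regulators of conidiation were lower. Of 4 kept regulators 3 were at least 2-fold lower and 0 higher, beside 11.9% and 11.0% over all kept genes. The other deletions had 2 to 4 of the 4 lower than wild type, and the library labelled abaA deletion had 1 higher. BrlA (PDE_00087), the central activator of conidiophore development in Aspergillus, had 248 RPKM in M12, 1.79 RPKM in the swi6 library and 0.249 to 107 RPKM elsewhere with a median of 86.0. It was 139-fold lower (80.8 to 261). FlbD (PDE_03008), an upstream Myb-type activator, had 341 and 62.8 RPKM, 5.44-fold lower (4.84 to 6.13). The transcriptional enhancer factor (PDE_02932) had 28.5 and 5.08 RPKM, 5.62-fold lower (4.32 to 7.40). SOK2 (PDE_04095), of the APSES family that holds StuA, had 377 and 256 RPKM and did not pass 2-fold. A second gene named BrlA (PDE_00079) was not kept, with 3 reads in wild type and 2 in the swi6 library. For each of the 3 lower regulators the swi6 library lay within the range of the other 8 deletions.

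Some genes past 2-fold were neighbours. Runs of at least 4 genes with consecutive locus numbers, all past 2-fold in 1 direction, numbered 20 higher with 98 genes and 19 lower with 118 genes, 9.77% and 10.8% of the calls in those directions. Locus numbers give the order of genes, and no coordinates were used. The longest lower run, PDE_00792 to PDE_00809, held 18 genes without a name. Its median gene level was 68.4 RPKM in M12, and 0.688 RPKM in the swi6 library, while the medians of the other 8 deletions did not exceed 2.35 RPKM, so wild type stood alone there.

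The second lower run, PDE_09999 to PDE_10010, held 12 genes, among them names from indole diterpene and prenylated alkaloid routes. Its median was 97.8 RPKM in M12 and 1.60 RPKM in the swi6 library, and 0 to 48.1 RPKM in the others. Paspaline synthase (PDE_10000) had 57.6 and 0.499 RPKM, 115-fold lower (31.6 to 959). Verruculogen synthase (PDE_10009), named after an oxygenase that adds a peroxide bridge, had 199 and 1.83 RPKM, 109-fold lower (57.0 to 238), and the other 8 libraries had a median of 40.5 RPKM. Another run, PDE_01063 to PDE_01071, was at 68.9 and 0.749 RPKM by its median. It holds a cyclic dipeptide prenyltransferase (PDE_01066) with 688 RPKM in M12 and 3.07 RPKM in the swi6 library, 224-fold lower (147 to 363), and 1.06 to 148 RPKM elsewhere. In both runs the swi6 library lay between the lowest and the highest of the other deletions, whose medians for the second of them were 0 to 21.3 RPKM. The same run carries a fumitremorgin C monooxygenase and a brevianamide F synthase by name.

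The third lower run, PDE_09236 to PDE_09245, carries a scytalone dehydratase (PDE_09236) and a tetrahydroxynaphthalene reductase (PDE_09239), enzymes of the dihydroxynaphthalene melanin route, beside a gene named as a monodictyphenone polyketide synthase (PDE_09237). Its median was 254 RPKM in M12, 11.9 RPKM in the swi6 library, 39.7 RPKM in the flbC deletion library and 0 in the flbA deletion library. The reductase had 651 and 26.4 RPKM, 24.7-fold lower (20.5 to 30.0), and the polyketide synthase had 204 and 5.92 RPKM, 34.4-fold lower (29.6 to 40.2). All 4 genes of the conidial wall and pigment list, of which the dehydratase and the reductase are 2, were lower, with a median of -4.91. Against the median of the other 9 libraries that list was 0.95 higher. Over all kept genes 11.9% were lower, and the other deletions had 3 to 4 of the 4 pigment genes lower than wild type. The dehydratase and the reductase of the run had medians of at most 1.56 RPKM over the other 8 deletions. BrlA was lower between this pair of libraries too. In the flbB, flbE, wetA and abaA deletions BrlA held 85.2, 70.8, 105 and 107 RPKM, and the dehydratase held 0.276, 0.262, 0 and 0 RPKM. In the flbA, stuA and flbC deletions BrlA held 0.249, 1.30 and 98.8 RPKM, and the dehydratase 0, 0 and 110 RPKM. The library labelled flbD deletion had 86.7 and 0 RPKM. A link between BrlA and this run was not tested.

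**Figure D3:**
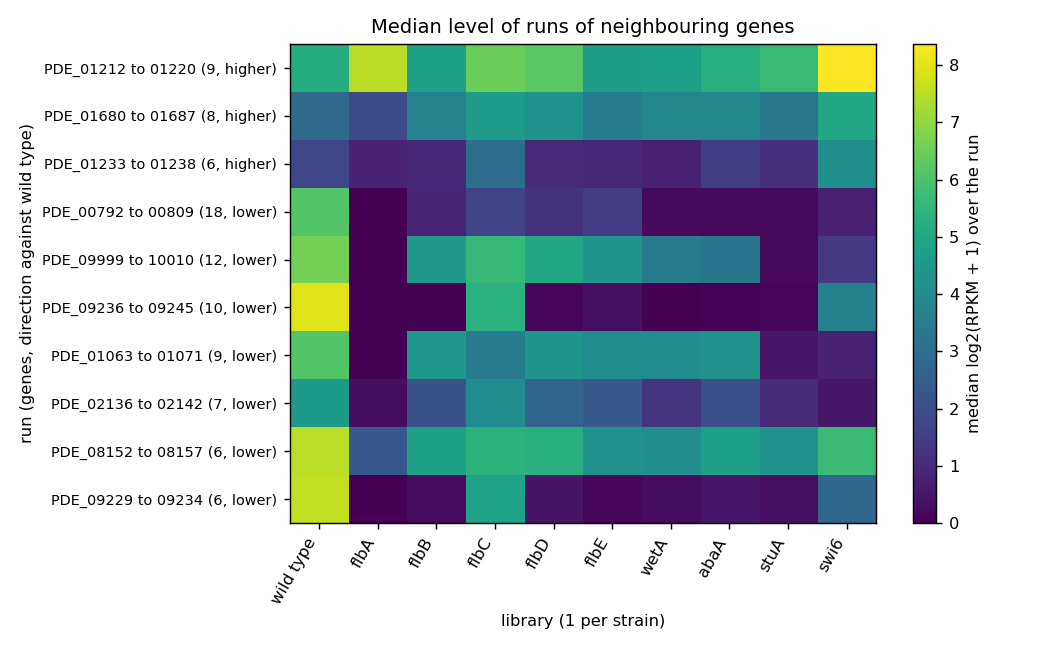
Median log2(RPKM + 1) over each of the 3 higher and 7 lower runs of at least 6 neighbouring genes (rows) in the 10 libraries (columns). The 18-gene run from PDE_00792 is bright in wild type (68.4 RPKM) and dark in the 9 deletions, and the 9-gene run from PDE_01212 is brightest in the swi6 library (330 RPKM).

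The longest higher run, PDE_01212 to PDE_01220, held 9 genes with a median of 35.5 RPKM in M12 and 330 RPKM in the swi6 library, and at most 179 RPKM in the other 8. Of its genes 5 stood above all other libraries. It contains both subunits of a fungal fatty acid synthase. Subunit alpha (PDE_01217) had 35.5 and 396 RPKM, 11.2-fold higher (10.4 to 11.96), with 18.7 to 125 RPKM elsewhere. Subunit beta (PDE_01220) had 112 and 330 RPKM, 2.94-fold higher (2.83 to 3.05), with 72.1 to 274 RPKM elsewhere. A branched-chain amino acid aminotransferase in the same run (PDE_01215) was 6.76-fold higher (6.25 to 7.31).

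A shorter run, PDE_01233 to PDE_01238, carried a hybrid polyketide and peptide synthetase named after aspyridone (PDE_01235), which had 1.52 and 11.8 RPKM, 7.76-fold higher (6.26 to 9.71). The remaining deletions held 0.134 to 1.71 RPKM, so the synthetase was low in all 10 libraries and highest in the swi6 library. Its partner enoyl reductase (PDE_01238) had 8.26 and 30.0 RPKM, 3.63-fold higher (2.63 to 5.12), and 5 of the 6 genes stood above all other libraries. By contrast, of 9 secondary metabolism backbone enzymes 5 were lower and 1 higher, beside 11.9% and 11.0% over all kept genes. The 1 higher is PDE_01235. Without a tRNA-modifying enzyme that the list had matched, a removal made after values were seen, 5 of 8 were lower. Of the list of 9, the other deletions had 3 to 6 lower than wild type and 0 higher.

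A list assembled after values were seen held 15 enzymes of acetate and propionate use, formate oxidation and gluconeogenesis. Of these 8 were higher (53.3%) and 2 lower (13.3%), with a median of 1.37, beside 11.0% and 11.9% over all kept genes. The stuA deletion also had 8 higher than wild type and 2 lower, with a median of 1.25. The other deletions had 3 to 7 higher and 2 to 4 lower, with medians of 0.04 to 0.67. Formate dehydrogenase (PDE_01080), which oxidises formate to carbon dioxide, had 97.0 RPKM in M12 and 13478 RPKM in the swi6 library, 139-fold higher (128 to 151). The other 8 libraries held 125 to 4494 RPKM with a median of 234, and the highest of them was the flbC deletion. Acetyl-CoA hydrolase (PDE_06444) had 15.7 and 426 RPKM, 27.1-fold higher (22.7 to 32.5), with 14.6 to 180 RPKM elsewhere. Both stood above every other library. Acetyl-CoA synthetase (PDE_01716), which activates acetate, was lower, at 22.2 and 1.75 RPKM, 12.7-fold (8.93 to 18.6), and the other deletions held at most 1.21 RPKM.

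The NADP malic enzyme (PDE_04142), a source of NADPH, had 57.6 and 971 RPKM, 16.9-fold higher (15.5 to 18.4), with 102 to 606 RPKM elsewhere. Phosphoenolpyruvate carboxykinase (PDE_08878), the entry to gluconeogenesis, had 332 and 3380 RPKM, 10.2-fold higher (9.81 to 10.6), inside the 404 to 4917 RPKM of the other deletions. The glyoxylate cycle enzymes isocitrate lyase (PDE_08297) and malate synthase (PDE_03483) were 2.60-fold (2.41 to 2.80) and 3.57-fold (3.33 to 3.84) higher, also inside the range elsewhere. These 3 genes lay outside the rule for named genes and were named after their values were seen. The other lower member, methylisocitrate lyase (PDE_06062), which ends the breakdown of propionate, had 5601 RPKM in M12 and 34.2 RPKM in the swi6 library, 164-fold lower (142 to 190). The other 8 libraries held 27.8 to 2540 RPKM, and the lowest of them was again the flbC deletion.

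Tyrosine breakdown genes were higher at 1 group of neighbours. Of 12 kept genes, in a list made after values were seen, 3 were higher (25%) and 1 lower (8.33%), with a median of -0.21. Over all kept genes 11.0% were higher and 11.9% lower. The 3 higher genes are neighbours, PDE_09759 to PDE_09761, and each stood above all other libraries. The 4-hydroxyphenylpyruvate dioxygenase among them (PDE_09761), which opens the route to homogentisate, had 883 RPKM in M12, 6030 in the swi6 library and 3.42 to 568 elsewhere, 6.83-fold higher (6.64 to 7.03). The aminotransferase PDE_09759 had 78.2 and 714 RPKM, 9.14-fold higher (8.404 to 9.95). Another 4-hydroxyphenylpyruvate dioxygenase (PDE_08904), named after its values were seen, had 278 and 141 RPKM, 1.98-fold lower (1.83 to 2.15).

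**Figure D4:**
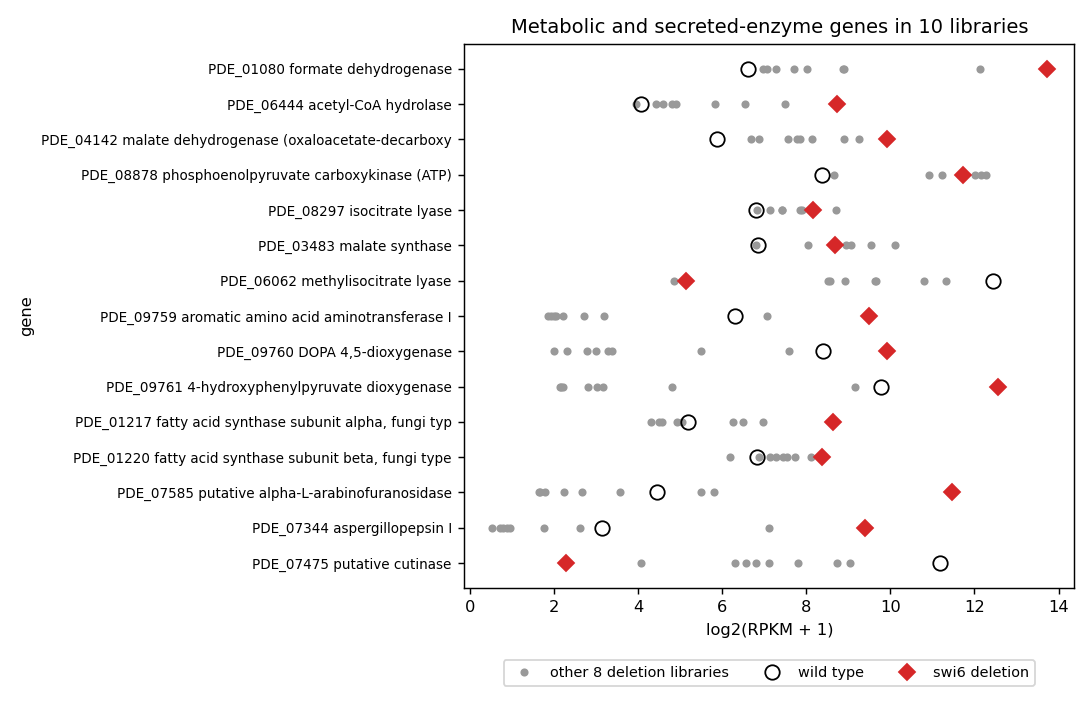
Levels of 15 metabolic and secreted-enzyme genes as log2(RPKM + 1), with M12 as open circles, the swi6 deletion as red diamonds and the other 8 deletion libraries as grey points. Formate dehydrogenase reached 13478 RPKM in the swi6 library and at most 4494 RPKM elsewhere, and the cutinase had 3.83 RPKM there and at least 15.9 RPKM elsewhere.

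Lipid genes as lists lay near the shares over all kept genes, which were 11.0% higher and 11.9% lower. Of 46 genes of fatty acid synthesis and breakdown, a list made after values were seen, 7 were higher (15.2%) and 6 lower (13.0%), and of 25 of ergosterol synthesis 4 were higher and 3 lower. Squalene monooxygenase (PDE_09649), an early step of sterol synthesis from squalene, had 31.3 and 171 RPKM, 5.46-fold higher (4.75 to 6.31), with 45.0 to 94.1 RPKM elsewhere. A delta-12 desaturase (PDE_00643), which makes linoleic acid, had 161 and 51.3 RPKM, 3.13-fold lower (2.80 to 3.52), below the 160 to 312 RPKM of the other deletions. S-(hydroxymethyl)glutathione dehydrogenase (PDE_03064), which acts upstream of formate in formaldehyde oxidation, had 138 and 713 RPKM, 5.15-fold higher (4.78 to 5.56), above the 92.2 to 284 RPKM elsewhere.

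Secreted enzymes went both ways. An alpha-L-arabinofuranosidase (PDE_07585), which trims arabinose from plant cell walls, had 20.8 RPKM in M12 and 2811 RPKM in the swi6 library, 135-fold higher (112 to 166), against 2.11 to 55.1 RPKM elsewhere. An aspergillopepsin (PDE_07344), an acid protease, had 7.84 and 670 RPKM, 85.5-fold higher (64.4 to 116), and 0.443 to 138 RPKM elsewhere. Another aspergillopepsin (PDE_07927) had 1047 and 29.6 RPKM, 35.3-fold lower (30.6 to 41.0), but the other deletions held 5.20 to 630 RPKM with a median of 11.6, under the swi6 level. A cutinase (PDE_07475), which cleaves the plant cuticle polymer, had 2316 and 3.83 RPKM, 604-fold lower (360 to 1105), below the 15.9 to 521 RPKM of the other deletions. An alpha-1,3-glucanase (PDE_06621), of a family that degrades the fungal wall, had 979 and 5.81 RPKM, 169-fold lower (132 to 218), and at most 9.33 RPKM in the other deletions, so wild type was the outlying library.

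By list, and beside 11.0% higher and 11.9% lower over all kept genes, 9 of 64 hemicellulases were higher (14.1%) and 15 lower (23.4%). Of 69 chitin and glucan wall enzymes 14 were higher (20.3%) and 18 lower (26.1%). Of 30 kept cellulase matches 6 were higher and 4 lower, and after removal, with values seen, of wall glucanase and xylosidase matches 5 of 24 were higher and 3 lower. Of 13 amylolytic enzymes 0 were higher and 6 lower (46.2%), with a median of -0.87. Among the 6 was an alpha-glucosidase (PDE_00400) with 768 and 98.6 RPKM, 7.78-fold lower (7.37 to 8.22). The other deletions had 5 to 9 of the 13 lower than wild type, with medians of -2.54 to -0.48. The median level of the list was 161 RPKM in M12, 98.6 in the swi6 library and 20.6 to 91.7 elsewhere, so wild type was the highest. Of 58 peptidases 4 were higher (6.90%) and 7 lower (12.1%), near or under those shares.

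Uptake and stress genes were also mixed. Of 14 nitrogen and amino acid uptake genes 4 were higher (28.6%) and 2 lower (14.3%), beside 11.0% and 11.9% over all kept genes. An oligopeptide transporter (PDE_06899) had 657 RPKM in M12 and 2.69 RPKM in the swi6 library, 244-fold lower (169 to 368), and 3.15 to 2098 RPKM elsewhere. Another of the same family (PDE_05534) had 125 and 827 RPKM, 6.63-fold higher (6.25 to 7.05), above the 0.799 to 310 RPKM of the other deletions. Of 30 oxidative stress genes 5 were higher (16.7%) and 0 lower, with a median of 0.33, and the other deletions had 1 to 13 higher. Of 36 heat shock proteins and chaperones 6 were higher (16.7%) and 1 lower (2.78%), and the other deletions had 13 to 17 higher. Nitric oxide dioxygenase (PDE_01345), which detoxifies nitric oxide, had 15.4 and 1789 RPKM, 116-fold higher (95.6 to 143), in the middle of the 300 to 8676 RPKM of the other deletions. The small heat shock gene PDE_00322 had 28.8 and 430 RPKM, with 280 to 4991 RPKM elsewhere. In both genes the wild type was the lowest of the 10 libraries.

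The remaining lists held members in both directions or few past 2-fold, beside 11.0% of all kept genes higher and 11.9% lower. Of 76 genes of mitochondrial respiration 0 were higher and 1 lower, with a median of -0.18, and of 46 genes of glycolysis and the citrate cycle 7 were higher and 7 lower. Of 20 pectinases 2 were higher and 4 lower, of 13 sugar transporters 1 was higher and 2 were lower, and of 6 cytochrome P450 genes 2 were higher and 1 lower. Of 28 lipases and cutinases 5 were higher and 5 lower, and of 19 genes of aromatic compound metabolism 5 were higher and 7 lower, both in lists made after values were seen.

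**Figure D5:**
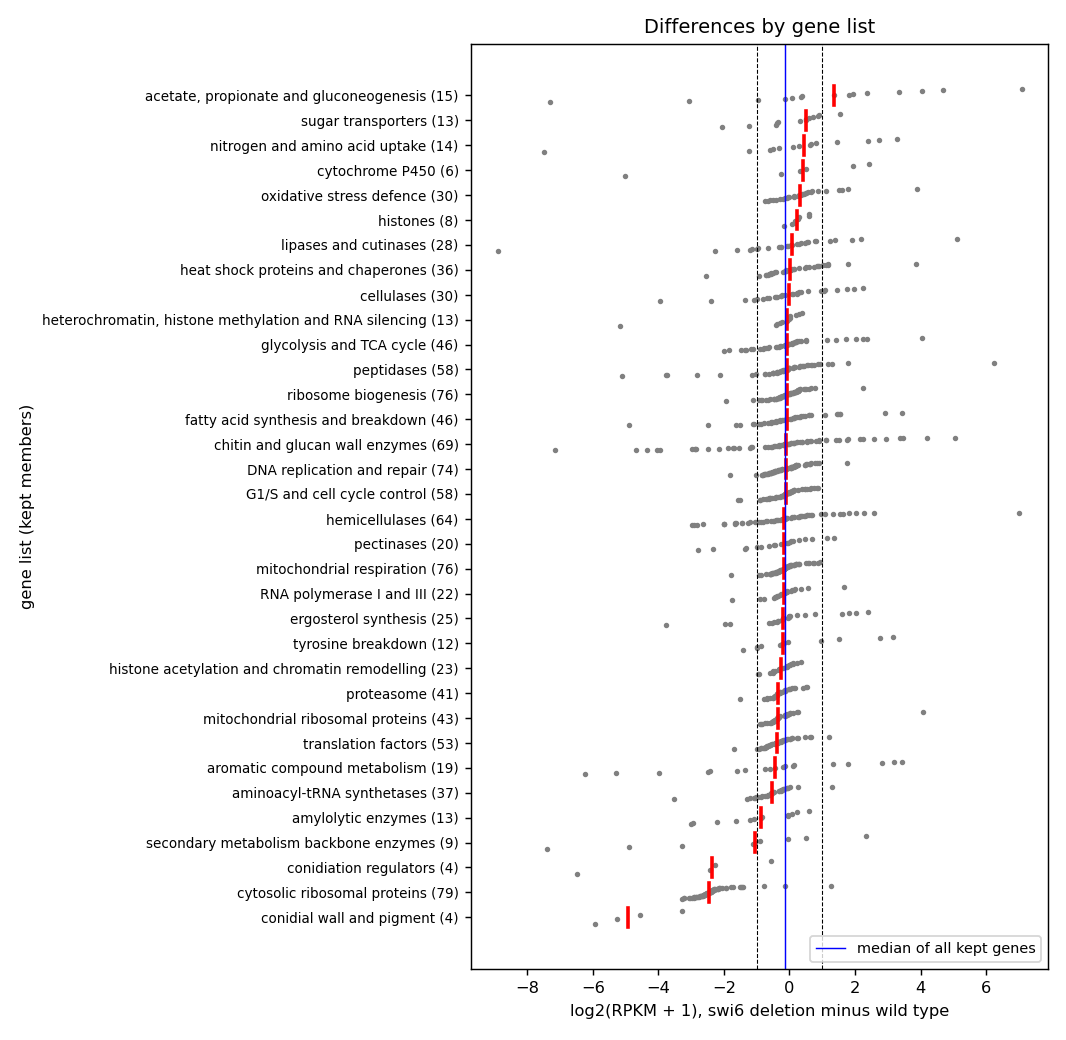
Difference of each kept member (points) and the median (red bar) for the gene lists with at least 4 kept members, as log2(RPKM + 1) in the swi6 library minus wild type, with the median of all kept genes (-0.14) in blue. The lowest medians belong to the pigment list (-4.91) and the cytosolic ribosomal proteins (-2.46), and the highest to acetate, propionate and gluconeogenesis (1.37).

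Genes without a product name were among the most different. PDE_08497 had 0 reads in wild type and 871 RPKM in the swi6 library, at least 444-fold higher against a floor of 3 reads in the wild type library, and at most 81.1 RPKM elsewhere. PDE_09315 had 11.3 and 4127 RPKM, 367-fold higher (260 to 536), against at most 450 RPKM elsewhere. PDE_03475 had 2736 and 1.31 RPKM, 2083-fold lower (1192 to 4032), and 5.11 to 4325 RPKM elsewhere with the lowest in the flbC deletion. Of the 172 genes standing above all other libraries 44 carried a name, and of the 104 standing below 86 did, beside 3558 of the 9134 kept genes. Apart from the 72 cytosolic ribosomal proteins, the 14 other named genes that stood below included subunit c of the mitochondrial ATP synthase (PDE_07836), with 392 RPKM in M12, 112 in the swi6 library and 351 to 2800 elsewhere.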

How the data were processed

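Single libraries of 10 strains were sequenced. The authors deposited 1 table of unique read counts, the percent of each gene covered and RPKM, per the file headers, and CASAVA 1.8 is named in the submitters' processing notes. Not given in the sources used here: aligner, build, annotation, strandedness. Deposited RPKM followed from the counts, coding lengths and library totals. No column was left without a sample. Differences were log2(RPKM + 1), for genes with mean RPKM of at least 1. Intervals were exact conditional (Clopper-Pearson) and tested on simulated data. Python 3.11.15, numpy 2.4.6, pandas 2.3.3 and scipy 1.17.1 were used. Gene names are the deposited descriptions, searched by text patterns. Named genes at 10 RPKM or more were the 15 highest and lowest with a name and 3 each way per list. Also at that level were 5 each way of any annotation and 8 each way standing apart. Conidiation regulators, chromodomain genes and the 3 longest runs each way were named without that floor. Alternatives varied the pseudocount, scaling, filter, reference, run length and libraries. Members and lists were chosen with earlier results of these data known.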

Additional observations from a re-analysis of the deposited data

How the results depend on the processing

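With 1 library a strain, no value carries replicate error, and depth limits genes with few reads: with 1 read, the interval for PDE_08896 ran from 31.6 to 7097. No paired analysis was possible because each strain has 1 library and the values come from no test. The count of 76 lower cytosolic ribosomal proteins was the same under every alternative run, which were chosen after seeing the data. The 1090 genes at least 2-fold lower became 720 with a pseudocount of 5 and 678 where the counting interval lay wholly beyond 2-fold. The 104 genes below all other libraries became 157 without wild type and 217 without the flbA and stuA deletions, and the 172 above became 302 without the flbC deletion. The 20 higher runs became 44 with 3 or more genes, 10 with 5 or more and 2 at 4-fold, and the 19 lower runs 49, 9 and 8. With wild type replaced as reference by the median over the remaining 9 libraries, the list medians turned to 0.95 for pigment genes and 0.040 for secondary metabolism backbone enzymes (0.10 without the tRNA enzyme). Under that reference PDE_01716 was at 0.92, PDE_03483 at -0.060, PDE_03486 at -0.60, PDE_05375 at -0.63, PDE_07927 at 0.87, PDE_09012 at 0.94, PDE_06621 at 0.18, PDE_09236 at 4.51, PDE_09237 at 2.61 and PDE_09239 at 3.38. The values of the genes named kept their direction under both other pseudocounts and, except for PDE_04328 at 0.049, under size-factor scaling. The causes were not tested.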
